A study of Mus musculus with 12 samples.

Results

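The 10 genes Cdkn1a, Mdm2, Ccng1, Zmat3, Phlda3, Trp53inp1, Btg2, Gtse1, Plk2 and Sesn1 are transcriptional targets of p53 that act in cell cycle arrest, in feedback onto p53 and in the restraint of growth. They were listed by name, with earlier results of these data known, and every probe set that carries one of these symbols was read. This gave 18 of the 22690 probe sets on the array, and 10 of the 12255 genes that were tested. A probe set is a group of short oligonucleotides for one transcript, and its value is the brightness (intensity) of the hybridized RNA. No probe set of these genes is shared with another gene symbol.

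RNA was taken on day 5 from cultures of aTC1, a mouse alpha cell line that makes glucagon, and of bTC3, a mouse beta cell line that makes insulin; both grew from islet tumours. In each line, 3 cultures received 3.3 µM GW8510, a small molecule described by the study as a putative CDK2 inhibitor, in 0.1% DMSO, and 3 received 0.1% DMSO alone. Titles and descriptions name GW8510 for all treated cultures, but the source label of replicates 2 and 3 in both lines reads GW8511 and GW8512, which was taken as a copying error. The 4 groups therefore hold 3 arrays each, labelled as biological replicates, and each group is a single tumour line. Such lines come from mice with a transgene for SV40 large T antigen, which sequesters p53 and RB family proteins; the glucagon promoter drives it in alpha lines and the insulin promoter in beta lines, so treated and control cultures share it. The study described toxicity at 3.3 µM in alpha cells. Intensities come from whole cultures, so a change in every cell and a change in the share of cells that express a gene cannot be told apart.

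p53 is a transcription factor that is kept low by the ubiquitin ligase MDM2 and accumulates under stress. It binds DNA at a pair of similar 10-base sequences, called decamers here, separated by at most 13 bases. Its targets include a brake on cyclin-dependent kinases (Cdkn1a), and several of its targets act back on p53 itself, among them Mdm2, Ccng1 and Gtse1. In tumour lines, this group of transcripts is commonly read as a sign of p53 activity.

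Promoter sequences of 8 of the 10 genes were taken from RefSeq (GRCm38.p6), as windows of 250 bases before to 50 after an annotated transcription start. Zmat3 and Trp53inp1 were not among them. Of 11 windows of these 8 genes, 5 hold at least 1 decamer that fits the p53 consensus without mismatch, against 8.36% of all 32851 windows in the table. The consensus reads the same on both strands, so 1 search covers both. Windows of Cdkn1a, Ccng1 and Gtse1 hold a decamer pair with at most 1 mismatch in total, against 1.09% of all windows. A match describes the letters and not binding. The sequence before the first annotated start of Cdkn1a (chr17:29090729-29090978, plus strand) and that before the start of Ccng1 (chr11:40755287-40755536, minus strand) are shown because these genes had the largest rises in aTC1 described below, with the decamers in capitals:
Cdkn1a: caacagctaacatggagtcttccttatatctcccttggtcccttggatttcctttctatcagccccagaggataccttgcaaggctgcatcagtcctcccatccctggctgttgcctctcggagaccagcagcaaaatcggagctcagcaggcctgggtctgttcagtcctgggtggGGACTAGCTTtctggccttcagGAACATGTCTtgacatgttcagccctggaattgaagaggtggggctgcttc
Ccng1: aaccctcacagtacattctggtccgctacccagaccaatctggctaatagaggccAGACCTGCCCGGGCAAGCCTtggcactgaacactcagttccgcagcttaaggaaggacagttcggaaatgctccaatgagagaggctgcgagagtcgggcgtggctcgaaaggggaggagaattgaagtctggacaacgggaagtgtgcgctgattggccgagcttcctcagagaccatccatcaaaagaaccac

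In the sequences above, capitals mark only the pair with the fewest mismatches in the window. The marked Cdkn1a pair has no mismatch, begins 73 bases before the start and has a spacer of 12 bases. The bases directly after its second decamer fit the consensus with 1 mismatch. That decamer is therefore also part of a pair with 1 mismatch and no spacer. The Ccng1 pair has 1 mismatch and no spacer, and begins 195 bases before the start. Both primers with which the study amplified Ccng1 chromatin, tacattctggtccgctaccc and cccgttgtccagacttcaat, lie in this window, from 239 to 55 bases before the start, so that their product of 185 bases holds the decamer pair. Neither of the study's Cdkn1a chromatin primers was found in the Cdkn1a windows, so the Cdkn1a sequence shown was not matched to the region the study amplified. Shorter matches are shown for the other genes, again with the decamers in capitals, on chr10:117710925-117710954 (minus strand) for Mdm2, chr15:85859945-85859964 (plus strand, across the second annotated start) for Gtse1 and chr10:41887256-41887285 (plus strand, before the second annotated start) for Sesn1:
Mdm2: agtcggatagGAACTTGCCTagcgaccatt
Gtse1: GAGCAAGTTGGGGCTTGCCT
Sesn1: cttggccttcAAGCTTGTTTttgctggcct

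The windows of Phlda3, Btg2 and Plk2 hold no decamer without mismatch. Nor do those at the second annotated start of Cdkn1a and at the first annotated starts of Gtse1 and Sesn1. This says nothing of sequence outside these windows.

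**Figure D1:**
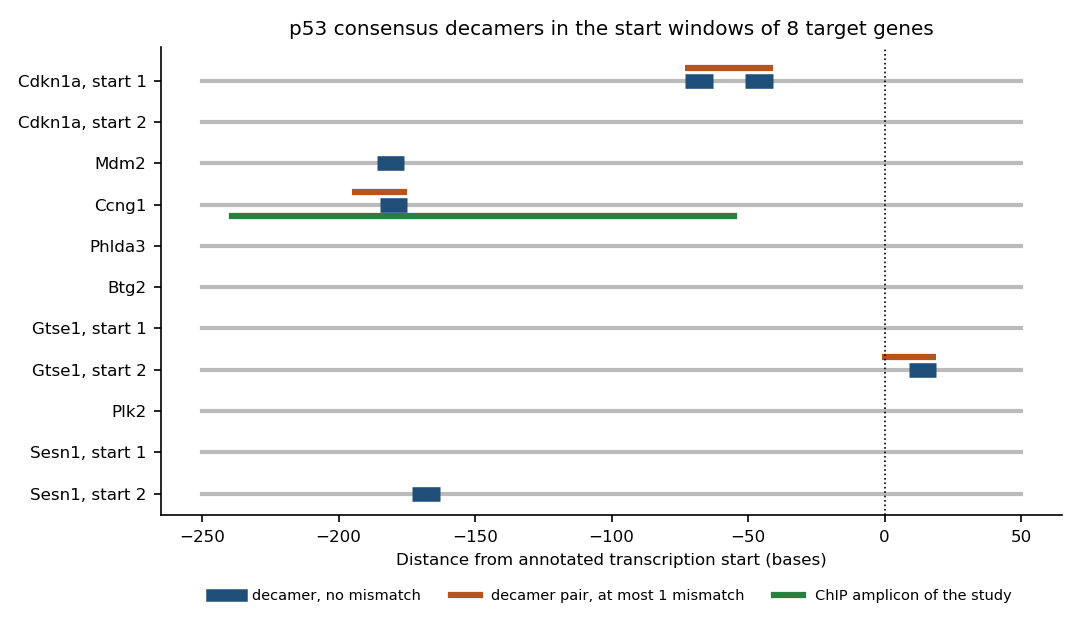
Position of p53 consensus decamers (blue), decamer pairs with at most 1 mismatch (orange) and the amplicon of the study's Ccng1 chromatin primers (green) in 11 windows of 8 genes, by distance in bases from the annotated transcription start. Only the pair with the fewest mismatches in a window is drawn. Cdkn1a has 2 decamers before its first start, and Mdm2, Ccng1, Gtse1 and Sesn1 have 1 each.

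Following GW8510 treatment, 9 of the 10 genes were up-regulated in aTC1 and 1, Sesn1, was down-regulated, whereas 5 were up-regulated, 2 down-regulated and 3 did not pass in bTC3. These calls are from limma, a linear model across all genes with moderated variances, at adjusted p under 0.05 over all 12255 genes. Of all genes, 20.2% were called higher and 21.2% lower in aTC1, and 19.7% higher and 14.3% lower in bTC3. The median log2 fold change of the 10 genes was 1.53 in aTC1, against 0.03 for all genes, and 0.22 in bTC3, against 0.07 for all genes. In aTC1 the 3 treated arrays lay entirely above or below the 3 control arrays in all 10 genes, as they did in 51.4% of all genes. In bTC3 this held for 7 of the 10, against 45.9% of all genes.

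**Figure D2:**
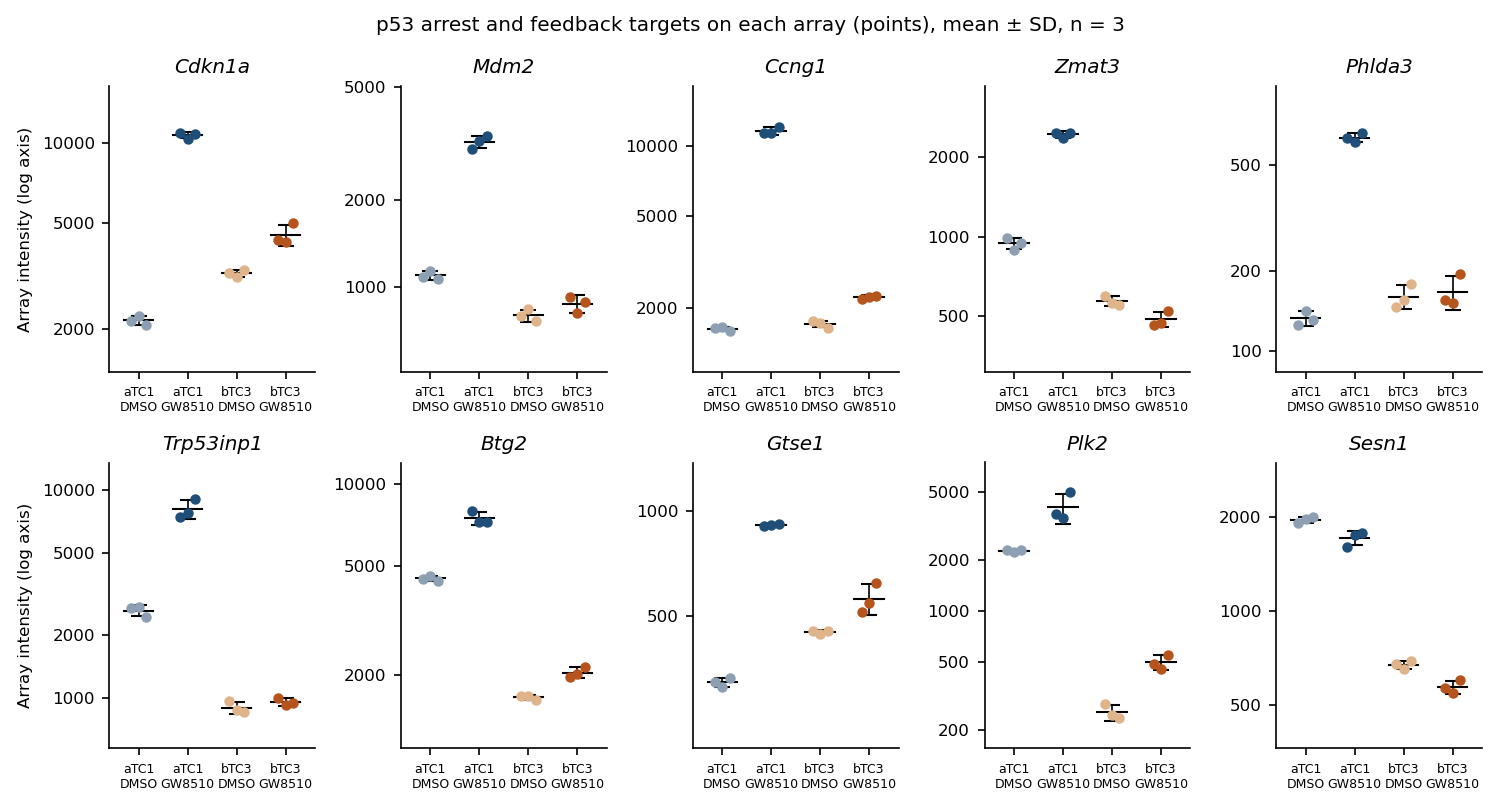
Array intensity (log axis) of the 10 genes on each of the 12 arrays, read from the brightest probe set of each gene, with points for arrays and lines for the mean ± SD of 3 arrays. Ccng1 stands at 1635 and 11611 in aTC1 with DMSO and GW8510, and at 1714 and 2232 in bTC3.

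Across the 12255 genes, arrays of a group were similar, with a lowest Pearson correlation of 0.994 between arrays of 1 group. Genes are not independent replicates. Median intensities were 173.7 to 182.0 on all arrays except bTC3 GW8510 replicate 3, with 199.9, and this array gave the highest treated bTC3 value of every gene but Mdm2 and Trp53inp1. Counts of called genes among the 10 were the same without this array in all comparisons. The glucagon gene Gcg was at the upper bound of the values, 20000, on all aTC1 arrays. The insulin gene Ins2 was there on all bTC3 arrays but at 95.2 to 98.8 with DMSO and 123 to 182 with GW8510 in aTC1. Sums of 6 measured beta cell markers were 2338 to 2469 with DMSO and 2950 to 3249 with GW8510 in aTC1. In bTC3 they were 53647 to 54977 and 57022 to 59068. Of the other measured alpha cell markers, Irx2 and Pou3f4 were higher in aTC1 with DMSO (means of 1881 against 275, and 520 against 86.7). Ttr went the other way, with a mean of 8351 in aTC1 with DMSO and 20000 on all bTC3 arrays. The bTC3 arrays also had high signals of Gcg, with 5997 to 6647 with DMSO and 11305 to 12890 with GW8510, and of the somatostatin gene Sst, with 17084 to 18296 with DMSO and 20000 with GW8510. Of lists of markers of other cells, 5 of 6 acinar markers were measured, and their summed intensity was 720.2 to 772 with DMSO and 939.8 to 1045 with GW8510 in aTC1 (mostly Cela1, at 438 and 643), and 337 to 410.1 and 425 to 470.2 in bTC3. Sums of 6 fibroblast markers were 355 to 378 and 337 to 428 in aTC1, and 392 to 457 and 529.5 to 653 in bTC3. Sums of 6 blood and vessel markers were 358 to 393 and 401 to 605 in aTC1, and 316 to 365 and 341 to 419.8 in bTC3, with the leukocyte gene Ptprc at the lower bound of 20 on all bTC3 and all DMSO arrays. Sums of 4 of 5 duct markers were 254 to 269 and 264 to 296 in aTC1, and 226 to 248 and 247 to 273 in bTC3. The part of these signals in the results below was not tested.

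Among the genes that act back on p53, Ccng1, which encodes cyclin G1, a partner of the phosphatase PP2A that acts on MDM2, had the largest rise of the 10 in aTC1. Its intensities were 1648, 1660.3 and 1597 with DMSO and 11337, 11393 and 12103 with GW8510 in aTC1. In bTC3 they were 1755, 1735 and 1651 with DMSO and 2185, 2241 and 2269.6 with GW8510. Treated arrays lay above control arrays in both lines, and the DMSO levels of both lines overlapped. Ccng1 rose 7.10-fold in aTC1 (log2 fold change 2.83, standard error 0.050, adjusted p = 7.68e-12), the 24th highest value of all genes, and 1.30-fold in bTC3 (log2 fold change 0.38, adjusted p = 1.13e-04). Its other probe sets rose 10.6-fold and 10.7-fold in aTC1 and 1.77-fold and 1.43-fold in bTC3, from lower intensities.

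Mdm2, the ubiquitin ligase of the feedback loop, had intensities of 1083, 1133 and 1063 with DMSO and 3035, 3216 and 3348 with GW8510 in aTC1. In bTC3 it had 789, 832 and 755 with DMSO and 922, 805 and 886 with GW8510. The treated aTC1 arrays lay far above all others, and the bTC3 groups overlapped. Mdm2 rose 2.93-fold in aTC1 (adjusted p = 5.27e-09), and in bTC3 it was at 1.10-fold with a 95% confidence interval of 0.994 to 1.21 (adjusted p = 0.140). Its other probe set gave 3.14-fold and 1.15-fold, the latter with treated arrays above control arrays (adjusted p = 0.0823 over all probe sets).

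Gtse1, a microtubule-associated protein of G2 that moves p53 out of the nucleus, had intensities of 324, 312 and 331 with DMSO and 907, 915 and 920.0 with GW8510 in aTC1. The bTC3 arrays had 452, 444 and 453 with DMSO and 515, 544 and 623 with GW8510. Neither pair of groups overlapped, and the rise was 2.84-fold in aTC1 (adjusted p = 6.30e-09) and 1.24-fold in bTC3 (adjusted p = 0.00297).

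Zmat3 encodes a zinc finger protein that binds RNA, and it moved in opposite directions in both lines. Its intensities were 990.0, 895 and 946 with DMSO and 2474, 2355 and 2473 with GW8510 in aTC1, where it rose 2.58-fold (adjusted p = 1.02e-08). In bTC3 they were 599.9, 563 and 552 with DMSO and 463, 474 and 524 with GW8510, all treated arrays below all control arrays. The bTC3 fold was 0.852 (adjusted p = 0.0143), and this call ended without bTC3 DMSO replicate 1 (adjusted p = 0.0652) or without bTC3 GW8510 replicate 1 (0.0564).

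Trp53inp1, a stress-induced protein that promotes p53 activity and autophagy, had intensities of 2695, 2749.9 and 2449 with DMSO and 7460.4, 7808 and 9070.2 with GW8510 in aTC1. In bTC3 it had 967, 869 and 856 with DMSO and 1000.1, 925 and 940.4 with GW8510. The bTC3 groups overlapped, and their levels lay below every aTC1 array. The rise in aTC1 was 3.08-fold (adjusted p = 1.88e-08), and the bTC3 value was 1.07-fold with an interval of 0.941 to 1.21 (adjusted p = 0.430). The other probe set gave 4.03-fold and 0.967-fold.

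Of the genes of arrest, Cdkn1a, which encodes the CDK inhibitor p21, had intensities of 2143, 2237 and 2063 with DMSO and 10892, 10348 and 10817 with GW8510 in aTC1. In bTC3 it had 3225, 3134 and 3322 with DMSO and 4303, 4224 and 4982 with GW8510. Control arrays of bTC3 lay above those of aTC1, and treated arrays of bTC3 lay far below those of aTC1. Cdkn1a rose 4.98-fold in aTC1 (log2 fold change 2.32, standard error 0.067, adjusted p = 2.55e-10) and 1.39-fold in bTC3 (log2 fold change 0.48, adjusted p = 1.80e-04). The other probe set gave 5.30-fold and 1.35-fold.

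Btg2, an antiproliferative protein that recruits the mRNA deadenylase complex, had intensities of 4509, 4592 and 4436 with DMSO and 7982, 7275 and 7265 with GW8510 in aTC1. Its bTC3 intensities were 1686, 1673 and 1622 with DMSO and 1969, 2013 and 2152 with GW8510. It rose in both lines with no overlap between groups, 1.66-fold in aTC1 (adjusted p = 6.24e-07) and 1.23-fold in bTC3 (adjusted p = 0.00137). Its other probe set rose 1.95-fold and 1.21-fold.

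Plk2, a polo-like kinase that acts in centriole duplication and is induced by stress, had intensities of 2291, 2222 and 2273 with DMSO and 3701, 3509 and 4978 with GW8510 in aTC1. Those of bTC3 were 285, 244 and 234 with DMSO and 490.5, 453 and 552 with GW8510. Treated arrays lay above control arrays in both lines, and aTC1 GW8510 replicate 3 stood above the other two. Plk2 rose 1.77-fold in aTC1 (adjusted p = 1.62e-04) and 1.96-fold in bTC3 (adjusted p = 8.62e-05), the largest rise of the 10 genes in bTC3 and the 161st highest of all genes there.

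Among the genes that restrain growth signals, Phlda3, a pleckstrin-homology protein that keeps Akt from the membrane, had low intensities of 125, 142 and 131 with DMSO and of 629, 612 and 660.4 with GW8510 in aTC1. The bTC3 values were 146, 155 and 179 with DMSO and 155, 151 and 195 with GW8510. The rise in aTC1 was 4.79-fold (adjusted p = 7.83e-09). The bTC3 groups overlapped, at 1.04-fold with an interval of 0.892 to 1.21 (adjusted p = 0.704).

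Sesn1, a sestrin that restrains mTORC1, was the gene of this group that fell in both lines. Its intensities were 1912, 1971 and 1999 with DMSO and 1611, 1754 and 1780.2 with GW8510 in aTC1. In bTC3 they were 678, 652 and 691 with DMSO and 567, 544 and 599 with GW8510, with treated arrays below control arrays in both lines. The fold was 0.874 in aTC1 (adjusted p = 0.0174) and 0.846 in bTC3 (adjusted p = 0.00660). Its other probe sets gave 0.809 and 0.852 in aTC1 and 0.757 and 0.858 in bTC3, and none of these passed (adjusted p of 0.127 to 0.292 over all probe sets). The aTC1 call ended without aTC1 DMSO replicate 2 (adjusted p = 0.0528), without aTC1 DMSO replicate 3 (0.0596), without aTC1 GW8510 replicate 1 (0.0568) and for the mean of all probe sets (0.0855), and for that mean the bTC3 call ended too (0.0521).

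**Figure D3:**
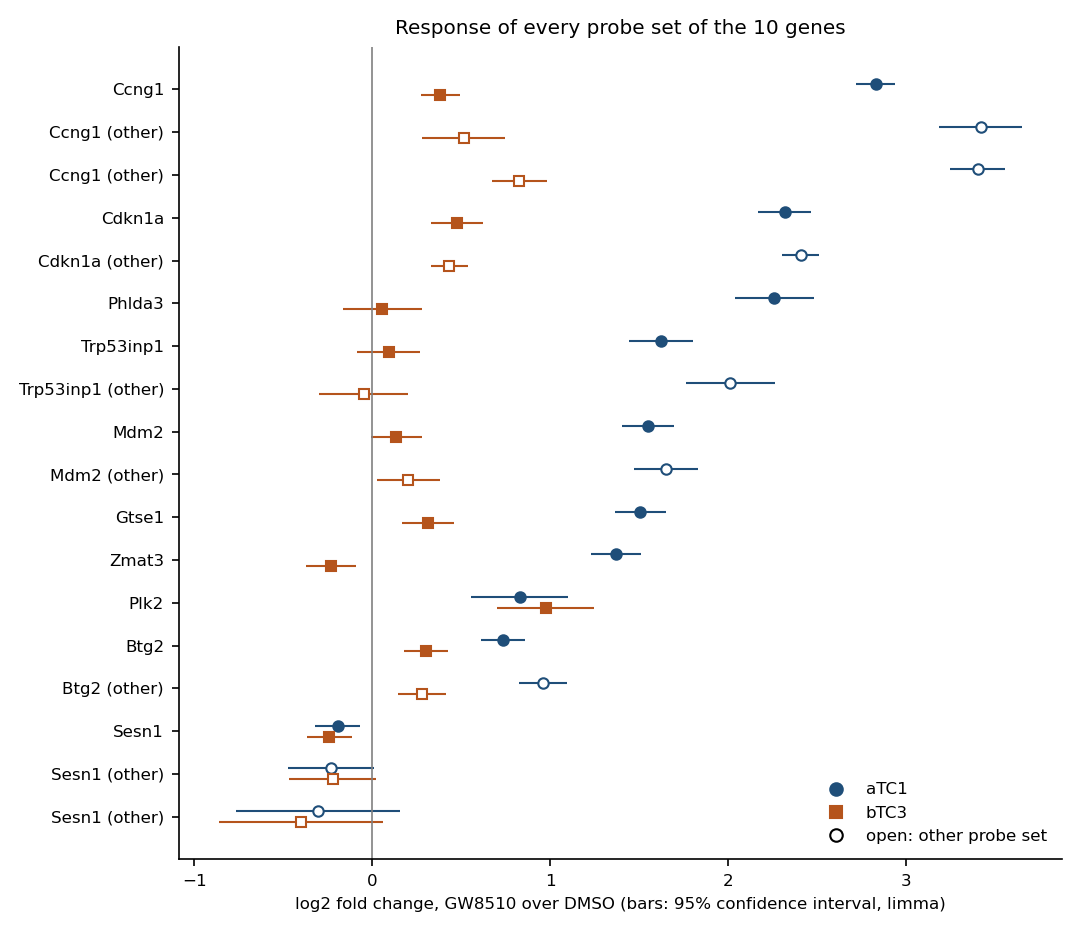
Log2 fold change of GW8510 over DMSO (horizontal axis) for each of the 18 probe sets in aTC1 (circles) and bTC3 (squares), with 95% confidence intervals from limma and open symbols for probe sets other than the brightest of a gene. All 3 probe sets of Ccng1 lie between 2.83 and 3.42 in aTC1, and the brightest probe set of Sesn1 lies at -0.19 in aTC1 and -0.24 in bTC3.

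Counted over probe sets, 15 of 18 were higher, 1 was lower and 2 did not pass in aTC1, and 9 rose, 2 fell and 7 were not called in bTC3. Of all 20380 probe sets with 1 symbol, 18.8% were higher and 20.8% lower in aTC1, and 18.5% were higher and 13.7% lower in bTC3. No gene had a probe set called higher and another called lower in the same line.

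In aTC1 the 10 genes, each read from its brightest probe set, fell into an order of response that their intervals only partly resolve. After Ccng1 (95% confidence interval of 6.58-fold to 7.66-fold) came Cdkn1a (4.49 to 5.51) and Phlda3 (4.10 to 5.58), which overlapped each other. Trp53inp1 (2.72 to 3.48), Mdm2 (2.65 to 3.23), Gtse1 (2.57 to 3.14) and Zmat3 (2.34 to 2.84) formed a run in which each overlapped the next. Plk2 (1.47 to 2.14) and Btg2 (1.53 to 1.81) overlapped too, and Sesn1 stood alone below 1. In bTC3 Plk2 (1.63 to 2.37) lay above the other 9, and the intervals of Cdkn1a (1.26 to 1.54), Ccng1 (1.21 to 1.41), Gtse1 (1.12 to 1.37) and Btg2 (1.13 to 1.34) overlapped one another. Other probe sets blur this order. Another of Ccng1 (1.59 to 1.97) overlapped Plk2 in bTC3, and that of Trp53inp1 (3.39 to 4.79) overlapped Cdkn1a and Phlda3 in aTC1.

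**Figure D4:**
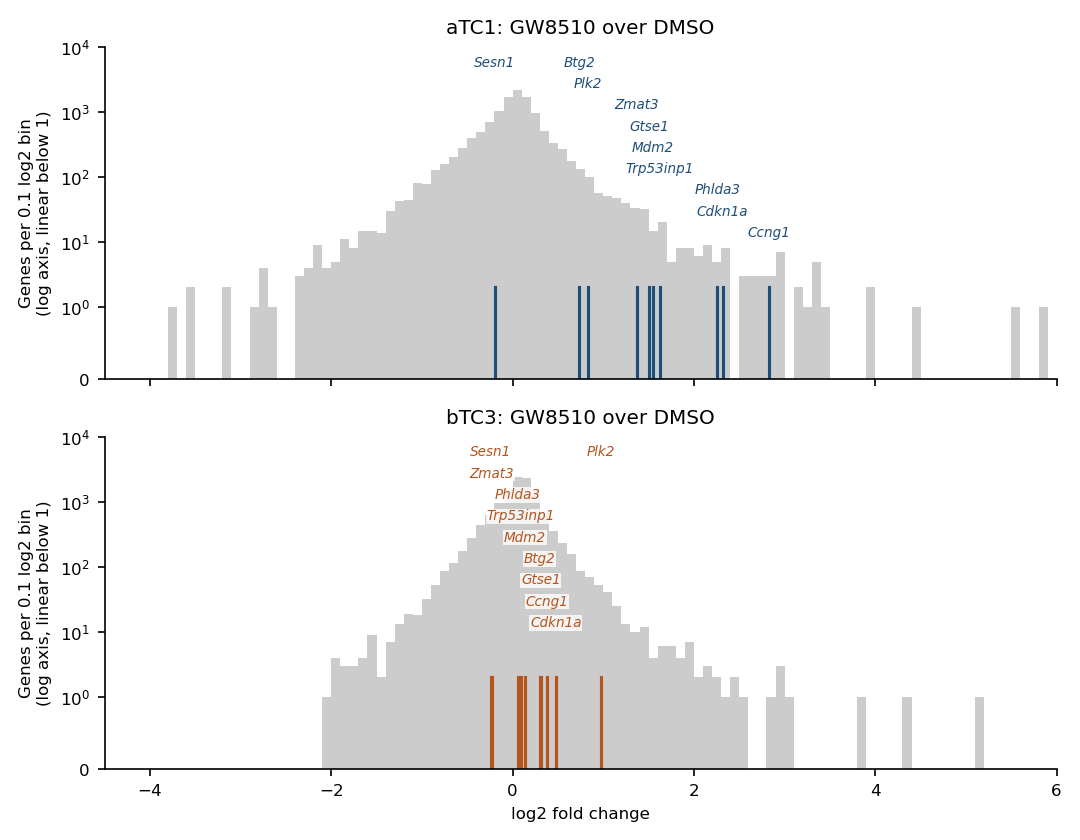
Number of genes in bins of 0.1 log2 fold change (vertical log axis, linear below 1) for all 12255 genes in aTC1 and bTC3, with coloured ticks at the 10 genes. In aTC1 the ticks run from -0.19 for Sesn1 to 2.83 for Ccng1, and in bTC3 from -0.24 for Sesn1 to 0.97 for Plk2.

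The response of bTC3 was then compared with that of aTC1 gene by gene, as the difference of both log2 fold changes in the same limma fit. It was lower in bTC3 in 8 of the 10 genes, higher in none, and did not pass in Plk2 and Sesn1. Of all genes, 12% were called lower and 16.4% higher in this comparison at adjusted p under 0.05. At unadjusted p under 0.05 also 8 of the 10 genes were lower and 0 higher, and no share of all genes was computed there. The fold in bTC3 was 0.183 times that in aTC1 for Ccng1 (95% confidence interval 0.165 to 0.204, adjusted p = 7.60e-10), 0.217 for Phlda3 (0.175 to 0.270, adjusted p = 5.21e-07) and 0.280 for Cdkn1a (0.242 to 0.323, adjusted p = 7.36e-08).

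The ratio was 0.330 for Zmat3 (0.288 to 0.378), 0.346 for Trp53inp1 (0.291 to 0.413), 0.376 for Mdm2 (0.326 to 0.433) and 0.438 for Gtse1 (0.380 to 0.504), with adjusted p of 1.49e-07, 1.81e-06, 5.67e-07 and 2.26e-06. Btg2 had a ratio closer to 1, of 0.740 (0.656 to 0.835, adjusted p = 0.00150). For Plk2 the ratio was 1.11 with an interval of 0.848 to 1.44 (adjusted p = 0.618), and for Sesn1 it was 0.967 with an interval of 0.854 to 1.10 (adjusted p = 0.743). These intervals bound the difference and do not show that both lines respond alike. Other probe sets of Cdkn1a, Mdm2, Ccng1, Trp53inp1 and Btg2 gave ratios of 0.134 to 0.623, all called lower.

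The levels from which the responses start were compared between the DMSO groups, which are also the controls of both responses, so these values share arrays with those above. Line and any difference in culture cannot be told apart here. In bTC3, 6 of the 10 genes were lower and 3 higher than in aTC1, and Ccng1 did not pass, against 28.9% of all genes lower and 26.8% higher. Plk2 had the largest gap, 254 ± 27.1 in bTC3 against 2262 ± 35.8 in aTC1 (mean ± SD, n = 3), a log2 difference of -3.16 (adjusted p = 4.73e-10). Trp53inp1, Sesn1 and Btg2 followed with log2 differences of -1.55, -1.54 and -1.44, and Zmat3 and Mdm2 had -0.72 and -0.47.

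Cdkn1a and Gtse1 were higher in bTC3 with DMSO, by 0.59 and 0.48 on the log2 scale (adjusted p = 8.18e-06 and 3.98e-05). Phlda3 was higher by 0.27 (adjusted p = 0.0414), a call that ended without aTC1 DMSO replicate 1 (adjusted p = 0.132) or 3 (0.0959), without aTC1 GW8510 replicate 1 (0.0502) or 2 (0.0516), without bTC3 DMSO replicate 2 (0.0652) or 3 (0.166), and under 3 other settings. Ccng1 differed by 0.07 with an interval of -0.04 to 0.18 (adjusted p = 0.289). Side by side, genes that started higher, lower and level in bTC3 are all found among the 8 with the lower response. Plk2 and Sesn1, whose difference of response did not pass, both started lower in bTC3 (-3.16 and -1.54). Any part of the DMSO level in the responses was not tested.

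The other genes of the p53 pathway were read from lists written from general knowledge. The counts of each list below stand against the shares of all genes, 20.2% higher and 21.2% lower in aTC1, and 19.7% and 14.3% in bTC3. These shares are at adjusted p under 0.05, and none was computed for the counts at unadjusted p. Of 13 p53 targets of apoptosis, 12 were measured and 1, Pmaip1, never left the lower bound. In aTC1, 10 of the 12 were higher, none was lower (0 at unadjusted p under 0.05 by limma also) and 2 did not pass, with a median log2 fold change of 0.71, and in bTC3 5 rose, 1 fell and the other 6 were not called, with a median of 0.11. The death receptor Fas had a log2 fold change of 2.21 in aTC1, from intensities near the lower bound (24.1 to 113), and Bid and Apaf1, which act in the mitochondrial route to caspases, had 1.59 and 1.53, with 0.67 and 0.85 for their other probe sets. Ei24, a protein of the endoplasmic reticulum, had 1.13. In bTC3 the membrane protein gene Perp rose by 2.99 on the log2 scale, from 155 to 1240. In aTC1 it had 0.29, at intensities near the lower bound (27.2 to 33.2). The difference of both responses was called higher in bTC3 (2.70, adjusted p = 9.51e-08 by limma). Bid had 0.60 in bTC3 (0.29 for its other probe set), Bbc3, which encodes PUMA, 0.37, and Siva1 -0.29.

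Of 9 p53 targets of DNA repair, 4 rose, 4 fell and 1 was not called in aTC1, and none was called in bTC3 (0 higher and 0 lower in limma, with 1 higher and 1 lower at unadjusted p under 0.05). The translesion polymerase Polk and the nuclease Ercc5 had log2 fold changes of 1.95 and 1.35 in aTC1, against 0.12 and 0.19 in bTC3, and the other probe set of Polk had 1.35 in aTC1. Gadd45a and Ddb2 had -1.08 and -0.46 in aTC1, against 0.04 and 0.09 in bTC3. The other probe set of Ddb2 gave -0.59 in aTC1 and -0.17 in bTC3.

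Of 22 p53 targets of metabolism and other function, 19 were measured, of which 13 were higher and 2 lower in aTC1, and 6 were higher and 3 lower in bTC3. The medians were 0.98 and 0.04 on the log2 scale. The epoxide hydrolase Ephx1 rose by 5.51 in aTC1 and by 2.42 in bTC3, and the xylulose reductase Dcxr by 2.89 in aTC1, where bTC3 had -0.08. Pmm1 rose by 1.97 and 0.53. The adenylate kinase Ak1 and the spindle protein Psrc1 rose in aTC1 (1.79 and 1.43) and fell in bTC3 (-0.62 and -0.67), as did Zmat3, but the other probe set of Ak1 gave 0.34 and 0.19, and those of Psrc1 gave 0.21 to 1.22 and -0.10 to -0.01. Plxnb2 and Ier3 had 0.75 and 0.65 in bTC3.

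Of 18 measured regulators of p53, 6 were higher and 4 lower in aTC1, and 3 were higher and 4 lower in bTC3, with medians of -0.06 and -0.03. The shares of all genes were 20.2% higher and 21.2% lower in aTC1, and 19.7% and 14.3% in bTC3. The damage kinase Chek2 rose by 0.76 in each line. Mdm4, the partner of MDM2 that holds p53 inactive, rose by 0.59 in aTC1 and fell in bTC3, with a log2 fold change of -0.38 (difference -0.97, adjusted p = 3.58e-05), while its other probe set gave 0.12 and -0.14. The kinase Atr had -0.99 and -0.28, the ubiquitin ligase Rchy1 0.66 and 0.14, Cdkn2a, whose product p19ARF inhibits MDM2, 0.65 and 0.34, the coactivator Crebbp -0.07 and -0.48, and Wrap53 1.13 and 0.13, with 0.51 and 0.02 for its other probe set.

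A list of cell cycle genes that p21 can lower through the DREAM repressor complex was read beside Cdkn1a. Whether p21 acted on them here was not tested. Of 19 measured, 14 were lower and 3 higher (Ccne1, Ccne2 and Birc5) in aTC1, with a median of -0.33. In bTC3, 3 fell, 5 rose and the remaining 11 were not called, with a median of 0.06. The shares of all genes were 21.2% lower and 20.2% higher in aTC1, and 14.3% and 19.7% in bTC3. The helicase subunit Mcm6 had -0.92 and -0.38, Prc1 -0.71 and 0.21, and Aurkb -0.58 and 0.06. Their other probe sets gave -1.25 and -0.62 for Mcm6, -0.78 and 0.02 for Prc1, and -0.67 and 0.23 for Aurkb. The mitotic genes Ccnb2 and Plk1 fell in aTC1 (-0.33 and -0.25) and rose in bTC3 (0.42 and 0.38), and Cdk1 had -0.06 and 0.42. Gtse1, itself a gene of G2, rose in aTC1 while most of this list fell.

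**Figure D5:**
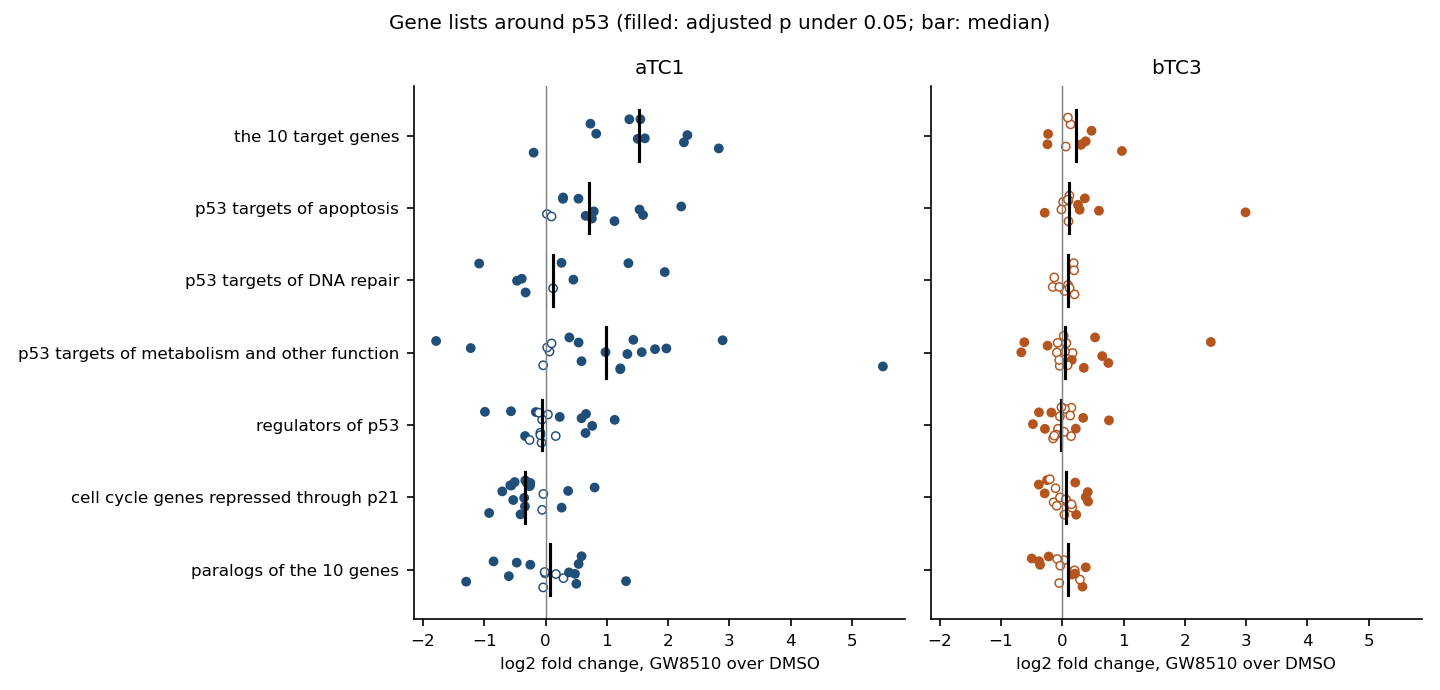
Log2 fold change of GW8510 over DMSO (horizontal axis) for each measured gene of 7 lists in aTC1 and bTC3, filled at adjusted p under 0.05, with a bar at the median. The 10 target genes have a median of 1.53 in aTC1 and 0.22 in bTC3, and the cell cycle genes -0.33 and 0.06.

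The genes whose pattern over the 12 arrays was most like that of Cdkn1a were Traf4, Tmem43, Scn3b, Cyb5a and Hfe. Likeness is the root mean square difference of log2 intensities after each gene was centred on its aTC1 DMSO mean, and it was 0.17 for Traf4, 0.22 for Tmem43, 0.23 for Scn3b, 0.26 for Cyb5a and 0.29 for Hfe. Traf4, a signalling adaptor, stood at 114 and 494 in aTC1 and at 178 and 275 in bTC3 with DMSO and GW8510. Of the other 9 target genes, Phlda3 (0.41), Gtse1 (0.43) and Ccng1 (0.48) took the 13th, 15th and 23rd places among all genes. Mdm2 (0.96) and Zmat3 (1.30) were much less alike, at places 533 and 5276 among all genes. Trp53inp1, Btg2, Sesn1 and Plk2 were at 1.69 to 2.59 (places 10549 to 12017), with a DMSO level in bTC3 well below that in aTC1.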

How the data were processed

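The authors deposited array intensities of 12 Affymetrix mouse expression arrays. The submitters' processing notes name RMA, with no version given in the sources used here. They run from 20 to 20000 on a linear scale, with both bounds taken as set by the authors, and log2 was taken here. Of 22690 probe sets, 20380 carry 1 gene symbol in GEO's platform annotation, and 330 of these, at a bound on all arrays, were left out. Each of 12255 genes was read from its probe set with the highest mean. A single fit of all 4 groups used limma 3.58.1 (R 4.3.3; group means, contrasts, empirical Bayes, Benjamini-Hochberg over all genes); folds are 2 to the power of the log2 fold change. Other probe sets were fitted over all probe sets with 1 symbol. The study names gene-set enrichment analysis for the arrays, not run here. It also counted single genes by fold change and p-value in alpha cells, without naming the test. Array numbers limit the precision. The script was tested on simulated arrays. Alternatives were a further quantile normalization, centring, other probe set rules, filters, arrays in the fit, spread estimates, array weights, a pseudocount of 16, leaving out each array, and a replicate block. Named genes are the 10 targets, up to 4 genes per list and line with the largest called changes, and the 5 most like Cdkn1a, where Pmaip1, Ccne2 and Birc5 were named after their values were seen. The members and lists were chosen with earlier results of these data known.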

Additional observations from a re-analysis of the deposited data

Results flagged for a closer look

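The response to GW8510 differed between the cell lines, by the test of the difference itself in limma, in 8 of the 10 genes. The log2 fold change in bTC3 minus that in aTC1 was -2.45 for Ccng1, -2.20 for Phlda3, -1.84 for Cdkn1a, -1.60 for Zmat3, -1.53 for Trp53inp1, -1.41 for Mdm2, -1.19 for Gtse1 and -0.43 for Btg2. Zmat3 is the one of these with calls of opposite direction in the lines, 1.37 in aTC1 and -0.23 in bTC3. No group has enough arrays for a search for single outlying arrays.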

How the results depend on the processing

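Under 23 other settings (22 for the difference of response, where fitting only the arrays of the comparison is the fit of all arrays), the number of called genes among the 10 stayed at 9 or 10 in aTC1 (9 higher throughout), 6 or 7 in bTC3 (5 higher throughout), 8 for the difference of response and 8 or 9 between the DMSO groups. Of 40 values of single genes, 34 kept direction and side of the threshold under every setting, and of 910 recomputed values 889 did. A call was lost in 16, in Sesn1, Zmat3 (bTC3) and Phlda3 (DMSO groups), and none was gained. The signs that turned belong to values that did not pass. Phlda3 in bTC3 had -0.0107 after a further quantile normalization, -0.00310 with array weights, and -0.00401 and -0.0585 without bTC3 DMSO replicate 1 and bTC3 GW8510 replicate 3, within -0.06 to 0.14, and Ccng1 between the DMSO groups had -0.0167 with arrays centred on their median. The cause was not tested. Replicate numbers did not pair the arrays (correlation of deviations of same-numbered arrays -0.127 to 0.0761), and with them as a replicate block the counts were 10, 7, 8 and 9, and no call of these genes changed. Of the 10 genes, Plk2 had the largest standard error (0.124 on the log2 scale), and values near the lower bound, such as those of Fas, limit the folds that can be measured.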

Other observations

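Relatives of the 10 genes, from a list written from general knowledge, moved in both directions. Of 16 measured, 6 were higher, 5 lower and 5 did not pass in aTC1, and 4 were higher, 4 lower and 8 did not pass in bTC3. The shares of all genes were 20.2% higher and 21.2% lower in aTC1, and 19.7% and 14.3% in bTC3. The CDK inhibitor Cdkn1b, which encodes p27, had a log2 fold change of -1.30 in aTC1 and -0.50 in bTC3, opposite in sign to its relative Cdkn1a in both lines. The other probe set of Cdkn1b gave -1.17 and -0.20. Ccng2, the relative of Ccng1, had -0.60 in aTC1 and 0.16 in bTC3, the latter not passing, and its other probe set gave -0.63 and 0.38. The relative of Phlda3 named Phlda1 rose by 1.31 and 0.33. The centriole kinase Plk4 had -0.85 and -0.08, the latter not passing, with -0.50 to -0.36 and -0.17 to 0.01 for its other probe sets. Cdkn1c, which encodes p57, had -0.36 in bTC3.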
